A study of Mus musculus with 2 samples.

Results

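Socs1, Socs2, Socs3, Cish and Usp18 encode proteins that switch off signalling from cytokine receptors, and their transcripts were followed in single lung cells of young and old mice with and without LPS. The 5 genes were taken by Ensembl identifier from 31053 genes in each of 8 count tables, and all 5 had a row in every table. The mice were C57BL/6JRj, aged 3 months (young) or 18 months (old). They received saline (control) or LPS, a bacterial endotoxin, at 2.5 mg per kg body weight, and lungs were taken 24 h later. The 4 groups were therefore young control, young LPS, old control and old LPS, with 2 libraries in each. Lavaged, dispase-digested lung cells were sorted as EpCAM-positive and DAPI-negative. Each group was marked by its own hashtag antibody, and the 4 groups of 1 experiment shared a 10x lane, so library 1 of each group came from 1 lane and library 2 from the other. The labels describe the lanes as independent experiments but do not give the number of mice behind a library, so p-values measure the spread between these libraries. The way LPS was given is not stated in the sources used here.

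Cytokine receptors without a kinase of their own signal through Janus kinases (JAKs), which phosphorylate STAT transcription factors. STATs then induce, among other genes, the inhibitors that end the signal. The SOCS proteins share an SH2 domain, which binds phosphotyrosine, and a SOCS box, which recruits an elongin and cullin ubiquitin ligase. SOCS1 is best known for blocking JAKs downstream of the interferon receptors, and SOCS3 for binding the gp130 chain used by the interleukin-6 family. CIS, the product of Cish, and SOCS2 are induced by STAT5 and act on receptors such as those for growth hormone, prolactin and erythropoietin. USP18 is of another family: it removes the ubiquitin-like protein ISG15 from its targets and, bound to the IFNAR2 chain, blocks the type I interferon receptor. Alveolar epithelial type II (AE2) cells, which make surfactant, respond both to endotoxin and to the cytokines that follow it.

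In GENCODE M21 (build GRCm38) Socs1 lies on chromosome 16 from 10782240 to 10785536 and Socs3 on chromosome 11 from 117966079 to 117970047, both on the minus strand. Socs2 lies on chromosome 10 from 95385362 to 95417180, also on the minus strand. Cish lies on the plus strand of chromosome 9 from 107296026 to 107302784, where 2 noncoding genes overlap it on the opposite strand. Usp18 lies on the plus strand of chromosome 6 from 121245906 to 121270917, where 1 noncoding gene overlaps it on the opposite strand. Whether the counting used strand is not given in the sources used here, so reads of Cish and Usp18 could include those of these partners. Promoters of 3 of the 5 genes were in the RefSeq table used (GRCm38.p6), and Socs2 and Usp18 were not. They are shown because Socs1 rose with the interferon-linked Usp18 in the data below while Cish did not. Each is printed from 180 bases before to 20 bases after the start of transcription in the RefSeq table. For Socs1 this is also the GENCODE start. The windows of Socs3 and Cish lie wholly inside the GENCODE spans given above, downstream of the GENCODE start, so their positions hold for the RefSeq start only. Capitals mark a STAT dimer type motif (TTCNNNGAA) or an interferon response type motif (GAAA, any 2 bases, GAAA). Both strands were searched from 250 bases before to 50 after the start.
Socs1 (chr16:10785517-10785716, minus strand): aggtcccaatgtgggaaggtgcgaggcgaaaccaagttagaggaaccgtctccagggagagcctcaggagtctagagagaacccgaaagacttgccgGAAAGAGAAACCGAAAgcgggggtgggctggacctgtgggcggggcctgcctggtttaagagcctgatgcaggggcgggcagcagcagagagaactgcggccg
Socs3 (chr11:117969347-117969546, minus strand): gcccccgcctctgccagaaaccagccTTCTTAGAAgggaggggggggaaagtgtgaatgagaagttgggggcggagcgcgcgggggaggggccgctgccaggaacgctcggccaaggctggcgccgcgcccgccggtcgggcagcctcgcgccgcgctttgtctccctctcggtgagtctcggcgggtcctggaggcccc
Cish (chr9:107296479-107296678, plus strand): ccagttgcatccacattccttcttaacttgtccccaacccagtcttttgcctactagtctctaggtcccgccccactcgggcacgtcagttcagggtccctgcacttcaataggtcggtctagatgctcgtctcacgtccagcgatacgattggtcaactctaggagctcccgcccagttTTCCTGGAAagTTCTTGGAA
The Socs1 promoter held 2 interferon response type matches that overlap by 4 bases, from -83 to -74 and from -77 to -68. The Socs3 promoter held 1 STAT type match, from -154 to -146. The Cish promoter held 2 STAT type matches, from 1 to 9 and from 12 to 20, counted from the RefSeq start of transcription as 1. Of the 32851 promoters in the table, 8.30% held the STAT type motif and 3.44% the interferon response type motif. A match describes the letters only.

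The 8 libraries held 14048 barcodes with 6228266 to 15435789 UMIs each. After removal of 2803 barcodes with few genes or many mitochondrial UMIs and of 13 called doublets, 11232 cells remained in 20 clusters, of which 8833 (78.6%; 738 to 1414 a library) were AE2-like by surfactant and lamellar body markers. The other named classes were ciliated-like (904 cells), alveolar macrophage-like (517), club/secretory-like (192) and 3 dendritic classes (343 type 1-like, 185 mature-like and 138 type 2-like), so the EpCAM sort also held leukocytes, and 120 cells of 2 clusters were left unnamed. Libraries of the same lane shared no barcode, and 2 barcodes occurred in both lanes. LPS libraries were deeper, with a median of 7390 to 8774 UMIs a cell against 5475 to 6504 in controls. Control and LPS AE2-like cells mostly fell in different clusters. In the LPS libraries 3.77%, 8.81% and 3.29% of AE2-like cells lay in clusters made up mostly of control cells, but 23.1% in the second old LPS library, which stands apart in this. In the AE2-like sums the 8 mature dendritic markers came to 21.2 to 32.5 CPM in controls and 919 to 1944 CPM after LPS. Without those markers whose highest level lies in AE2-like clusters they came to 7.92 to 10.5 and 6.59 to 10.6 CPM. The 11 alveolar macrophage markers came to 11.2 to 24.4 and 64.9 to 74.5 CPM, and the 7 neutrophil markers to 11.8 to 17.5 and 4.94 to 10.7 CPM. Of the 11 macrophage markers only 2 were higher in every LPS library than in every control, and 0 were lower. Of the 7 neutrophil markers 0 were higher in this way and 2 lower. The part of other cells and of depth in the results below was not tested.

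After LPS, AE2-like cells gained Socs1 and Usp18 at both ages, and both genes were then lower in old than in young cells. Socs3 followed another pattern: it was lower in old than in young controls, rose after LPS in old cells and did not pass the test in young ones. Socs2 was abundant in every library and moved little, and Cish was scarce and was not called in any comparison. UMIs were summed per library over AE2-like cells and tested with edgeR's quasi-likelihood test over 11377 genes, with all 5 members tested. Levels are CPM, the UMI counts of those sums divided by the total UMIs of the sum and scaled in the usual way. The differences are log2 with an approximate SE, and adjusted p-values are Benjamini-Hochberg values over all genes tested, called under 0.05.

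LPS against control in young AE2-like cells called 3 of the 5 members, all higher, where 40.2% of all genes were called and 21.9% were called higher. In old cells it also called 3, all higher, where 48.5% were called and 25.2% were called higher. Averaged over both ages 4 were called, all higher, against 57.8% of all genes (29.3% higher and 28.5% lower). The median log2 difference of the 5 members was 0.29 in young and 1.16 in old cells, against -0.01 in both over all genes. Between ages the background was far lower: 1 member was called between old and young controls, lower in old (0.606% of genes called, 0.36% lower). Between old and young LPS cells 2 were called lower and 1 higher in old (4.01% of genes called, 2.39% lower and 1.62% higher). The interaction, which is the change after LPS in old minus that in young cells, called 1 member, which was higher, with 0.703% of genes called and 0.352% higher. These comparisons share libraries and are not independent of each other. Without the second old LPS library, the difference after LPS in old cells was 4.40 for Usp18, 3.25 for Socs1 and 1.22 for Socs3 on the log2 scale.

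**Figure D1:**
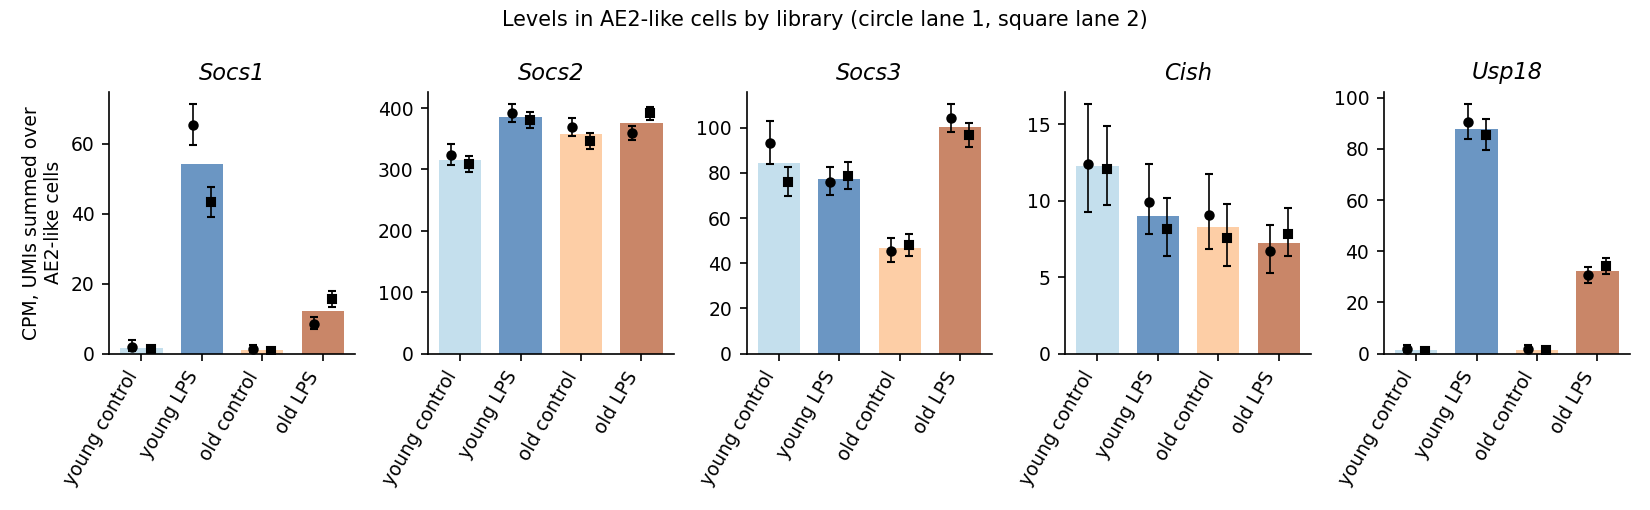
Levels of the 5 members in AE2-like cells (vertical axis, CPM from 0) for the 4 groups; bars are means of 2 libraries, symbols are the libraries of the first (circle) and second (square) lane, and error bars are exact 95% Poisson intervals of the counts. Socs1 and Usp18 are near 0 in the 4 control libraries, and old LPS libraries lie at 8.56 to 15.5 CPM of Socs1 against 43.2 and 65.3 CPM in young LPS libraries.

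Usp18, the ISG15 protease and brake on the type I interferon receptor, stood at 1.67 and 0.940 CPM in the 2 young control libraries and at 90.4 and 85.3 CPM in the young LPS libraries. In old cells it stood at 1.78 and 1.28 CPM in controls and at 30.6 and 34.2 CPM after LPS. The LPS libraries of both ages lay far above all controls, and every young LPS library lay above both old ones. Relative to these low controls the sums were 71.9-fold higher in young cells (log2 difference 6.17 ± 0.20, adjusted p = 2.01e-12, edgeR) and 22.1-fold higher in old cells (4.47 ± 0.20, adjusted p = 6.78e-11, edgeR). The control levels of Usp18, and those of Socs1 below, rest on few UMIs, and whether these are free RNA was not tested. The fitted folds are therefore over a level near the floor and not over a well measured expression level. After LPS old cells held 2.68 times less Usp18 than young ones (log2 difference -1.42 ± 0.11, adjusted p = 2.01e-06, edgeR), and by p this was rank 3 of all genes in that comparison. In controls the ages did not separate (0.28 ± 0.42, adjusted p = 0.912, edgeR).

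The test of whether the rise in Usp18 itself differed between ages gave -1.70 ± 0.44 with an adjusted p of 0.0972 (edgeR), short of the threshold. The 4 control libraries held 7 to 11 UMIs of Usp18 each, which limits that test. Without the second old LPS library this difference in the rise was -1.77, and over the 8 libraries left out in turn it ran from -2.06 to -1.21. Within lanes the rise was 5.76 and 6.50 in young cells and 4.10 and 4.74 in old cells on the log2 scale, so young exceeded old in both lanes.

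Socs1, the inhibitor of JAKs below the interferon receptors, was close to absent from control AE2-like cells. Its sums held 8 and 9 UMIs in young controls (1.91 and 1.21 CPM) and 8 and 5 UMIs in old controls (1.29 and 0.641 CPM). After LPS it reached 65.3 and 43.2 CPM in young cells and 8.56 and 15.5 CPM in old cells. Groups did not overlap between control and LPS, nor between young and old LPS, although the old LPS libraries differed from each other by more than their counting intervals. The rise was 36.5-fold in young cells (log2 difference 5.19 ± 0.51, adjusted p = 3.40e-04, edgeR) and 13.3-fold in old cells (3.74 ± 0.63, adjusted p = 0.00313, edgeR). Old LPS cells held 4.40 times less than young LPS cells (-2.14 ± 0.31, adjusted p = 0.0178, edgeR).

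Leaving out libraries in turn kept that age difference between -2.63 and -1.79, and without the second old LPS library it was -2.63. The interaction was -1.46 ± 1.18 (adjusted p = 0.745, edgeR), an SE too wide to say whether the rise differed between ages. Within lanes the rise was 5.09 and 5.16 in young cells and 2.73 and 4.60 in old cells on the log2 scale. With clusters named strictly, which left the 3 AE2-like clusters with a marker of another class among their leading genes out of the sums, the age difference after LPS was -1.08 (adjusted p = 0.0787, edgeR) and was not called. Those 3 clusters hold mostly LPS cells. The one led by Iigp1 and Gbp2 held 914 of the 1219 Socs1 UMIs of AE2-like cells. Strict sums kept 267 of 1275 cells of the first old LPS library and 602 of 1008 of the first young one.

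Socs3, the inhibitor of gp130 signalling, was the member whose response to LPS differed between ages. In young cells it stood at 93.2 and 76.0 CPM in controls and at 76.1 and 78.7 CPM after LPS. In old cells it stood at 45.6 and 47.9 CPM in controls and at 104 and 96.8 CPM after LPS. Old controls were thus the lowest group and old LPS the highest, each clear of the other 3 groups, whereas young control and young LPS libraries overlapped. The difference after LPS was -0.12 ± 0.11 in young cells (adjusted p = 0.414, edgeR) and 1.16 ± 0.11, or 2.23-fold, in old cells (adjusted p = 4.67e-07, edgeR). The interaction was 1.28 ± 0.16 (adjusted p = 0.00218, edgeR), and by p it was rank 2 of all genes. It ran from 1.13 to 1.45 when each of the 8 libraries was left out.

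Both ends contributed to that interaction. Old controls held less Socs3 than young controls (-0.88 ± 0.12, adjusted p = 0.00107, edgeR), at rank 9 of all genes, and within lanes the difference was -1.03 and -0.67. Without the first old control library it was -0.84 (adjusted p = 0.0578, edgeR) and missed the threshold. After LPS old cells held more (0.39 ± 0.11, adjusted p = 0.0485, edgeR). That call was lost with 7 of the 8 libraries left out in turn (adjusted p up to 0.264, edgeR) and with DESeq2 (adjusted p = 0.295). With clusters named strictly, Socs3 in young cells was called lower after LPS (-0.48, adjusted p = 0.00470, edgeR) and the mean of both ages was no longer called (0.15, adjusted p = 0.202, edgeR). The 3 clusters of mostly LPS cells left out there had the highest Socs3 of the AE2-like clusters, at 99.4, 117 and 122 CPM.

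**Figure D2:**
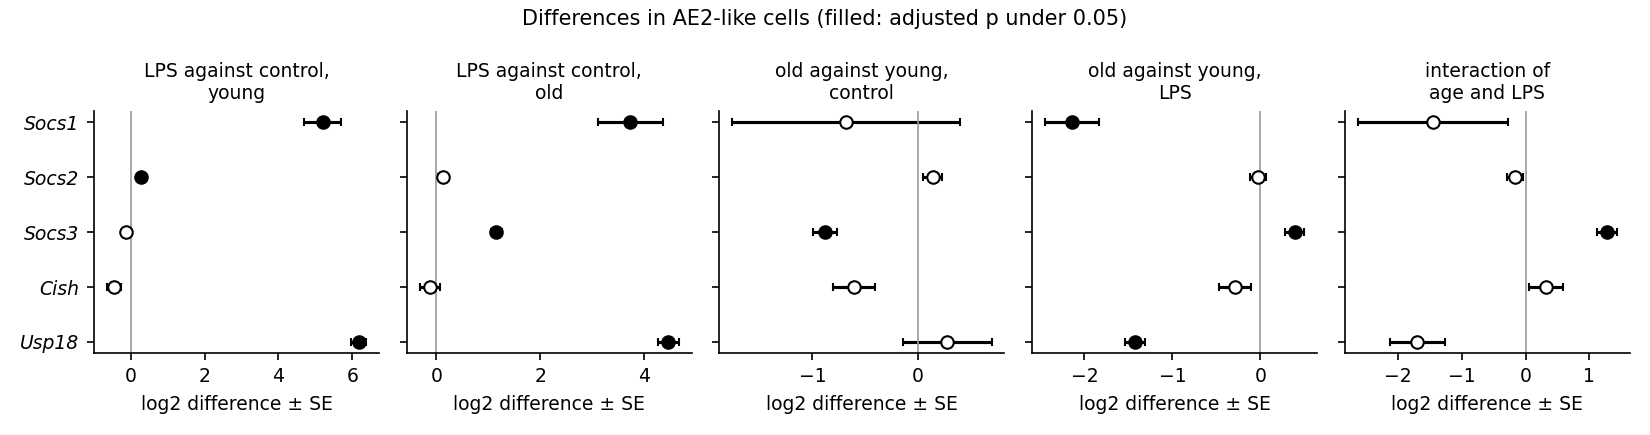
Log2 differences of the 5 members in AE2-like cells (horizontal axes, which differ between panels; bars are ± 1 SE) for 5 comparisons, with filled points where the adjusted p was under 0.05. Socs1 and Usp18 lie to the right at both ages after LPS and to the left in old against young LPS, while Socs3 alone is filled in the interaction at 1.28.

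Socs2, the regulator of growth hormone receptor signalling, had between 308 and 392 CPM in all 8 libraries. Young controls held 324 and 308 CPM and young LPS cells 392 and 380 CPM, and these did not overlap. Old controls held 369 and 347 CPM and old LPS cells 359 and 391 CPM, which overlapped. The rise in young cells was 1.22-fold (0.29 ± 0.09, adjusted p = 0.0191, edgeR). It was not called with DESeq2 (adjusted p = 0.0644) nor with 4 of the 8 libraries left out, which were the 2 young control and the 2 young LPS libraries (0.23 to 0.33, adjusted p 0.0574 to 0.179, edgeR). In old cells the difference was 0.12 ± 0.09 (adjusted p = 0.275, edgeR), and the interaction, at -0.16 ± 0.13 (adjusted p = 0.713, edgeR), did not separate the ages. Over the 9 alternatives other than a library left out, the difference in old cells ran from 0.07 to 0.41. It was called higher in 1 of them, so it depends on the setting.

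Cish, the STAT5-induced founding member of the SOCS family, had 6.68 to 12.4 CPM in the 8 libraries, from 52 to 100 UMIs each. Young controls held 12.4 and 12.1 CPM, young LPS cells 9.90 and 8.12 CPM, old controls 9.06 and 7.56 CPM and old LPS cells 6.68 and 7.84 CPM. Young controls lay above all other libraries, and the other 3 groups overlapped in part. Its difference after LPS was -0.45 ± 0.19 in young (adjusted p = 0.0728, edgeR) and -0.13 ± 0.19 in old cells (adjusted p = 0.609, edgeR), and between old and young controls it was -0.60 ± 0.20 (adjusted p = 0.241, edgeR). With clusters named strictly, and so without 3 clusters of mostly LPS cells, it was called lower in young cells after LPS (-0.90, adjusted p = 0.00280, edgeR).

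A sum does not tell more positive cells from more RNA per cell, so the share of AE2-like cells with a UMI was computed after thinning each cell to 3000 UMIs, with shallower cells left out (14 to 55 a library). Usp18 was found in 0.387% of control cells (mean of 4 libraries) and 12.98% of LPS cells, and Socs1 in 0.357% and 7.08%. The highest shares were those of young LPS libraries, at 20.3% and 17.5% for Usp18 and 13.6% and 8.86% for Socs1. Old LPS libraries had 7.12% and 7.03% for Usp18 and 2.36% and 3.46% for Socs1. For both genes every LPS library lay above every control (exact two-sided permutation test over 4 against 4 libraries, p = 0.0286, the smallest this design gives; 0.0714 adjusted over the 5 members). Unthinned the means were 0.857% and 25.6% for Usp18 and 0.772% and 14.5% for Socs1.

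Socs2 was found in 61.2% of control and 65.3% of LPS cells (exact permutation p = 0.0571, adjusted 0.0952), and in 82.0% and 90.3% without thinning. Socs3 was found in 20.02% and 17.8% of cells of young controls, 17.7% and 18.5% after LPS, 11.4% and 11.5% in old controls and 24.6% and 21.3% after LPS, the same order of groups as its sums. Its shares after LPS and in controls differed by an exact permutation p of 0.143 (adjusted 0.179), with unthinned means of 26.4% and 42.0%. Cish was found in 2.93% and 2.45% (p = 0.257, exact permutation, adjusted 0.257), and without thinning the direction turned, at 5.88% and 6.18%. As a guide to free RNA, Socs2 was found at the same thinned depth in 1.40% of 259 control dendritic type 1-like cells, and Usp18 in 0.472% of 388 control alveolar macrophage-like cells. The control shares of Usp18 (0.260% to 0.503%) and Socs1 (0.164% to 0.450%) in AE2-like cells are close to or below these. Free RNA of a gene depends on its own abundance, and no such share is given for Socs1. Whether the control UMIs of Socs1 and Usp18 are free RNA was therefore not tested, and their control levels are treated as near the floor.

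Within the LPS libraries Usp18 and Socs3 were both found more often in AE2-like cells with a UMI of Socs1 than in those without. Among cells with at least 5000 UMIs, Usp18 had a UMI in 66.1% and 66.2% of Socs1-positive cells of the young LPS libraries, against 30.8% and 27.2% of Socs1-negative cells. In the old LPS libraries it was 27.1% and 35.0% against 15.5% and 14.7%. Socs3 had a UMI in 48.4% and 52.6% of Socs1-positive cells of the young LPS libraries against 32.3% and 35.9% of the others, and in the old ones in 61.4% and 71.8% against 51.8% and 44.8%. The Socs1-positive cells were deeper (medians of 8352 to 11250 UMIs against 7558 to 9232). Socs2 went the other way in the young libraries: Usp18 was found in 38.3% and 32.9% of Socs2-positive and 59.6% and 51.7% of Socs2-negative cells, whose median depths were 7801 and 8448 against 7636 and 8574 UMIs. In the old libraries it was 16.2% and 16.3% against 16.3% and 20.2%. Cells of 1 library are not replicates, and these shares are a description.

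**Figure D3:**
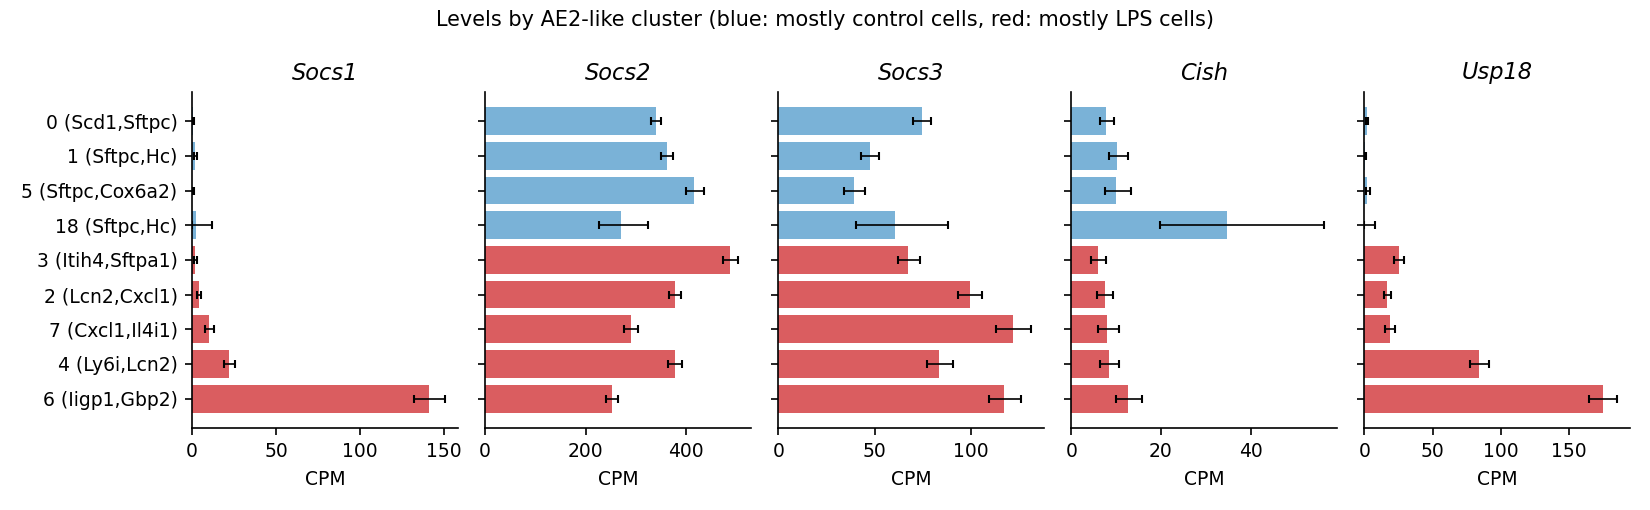
Levels of the 5 members in the 9 AE2-like clusters (bars, CPM from 0, all libraries summed; error bars are exact 95% Poisson intervals), each cluster given with its number and 2 leading genes; blue clusters hold mostly control and red clusters mostly LPS cells. Socs1 (141 CPM) and Usp18 (175 CPM) are highest in the cluster led by Iigp1 and Gbp2, where Socs2 (252 CPM) is lowest.

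The 9 AE2-like clusters were defined on these cells and are given without a test. The cluster with Iigp1 and Gbp2 in front, which encode GTPases induced by interferon, had 141 CPM of Socs1 and 175 CPM of Usp18. Next came the cluster led by Ly6i and Lcn2, with 22.1 CPM of Socs1 and 84.0 CPM of Usp18. The other 3 clusters of LPS cells had 1.68 to 10.1 CPM of Socs1 and 16.9 to 25.2 CPM of Usp18. Socs2 ran the other way, from 252 CPM in the Iigp1 and Gbp2 cluster to 488 CPM in the cluster led by Itih4 and Sftpa1, which had the least Socs1 of the LPS clusters.

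Socs3 was highest in the cluster led by Cxcl1, Il4i1 and Csf2 (122 CPM) and in the Iigp1 and Gbp2 cluster (117 CPM), with counting intervals that overlap. The former held 357 and 208 cells of the old LPS libraries against 8 and 9 of the young ones, so its level cannot be told apart from age. Among clusters that hold mostly control cells Socs3 ranged from 39.2 CPM in the cluster led by Sftpc and Cox6a2 to 74.4 CPM in the cluster led by Scd1. The Sftpc and Cox6a2 cluster also held many LPS cells. Its control libraries stood at 41.1 to 62.6 CPM of Socs3 and its LPS libraries at 16.1 to 29.7 CPM, from 3 to 39 UMIs each. This separation was lost when cells were clustered without the members. The cluster led by the same genes then had 46.2 to 81.8 CPM of Socs3 in control libraries. Its first old LPS library stood at 73.2 CPM on 15 UMIs, and its other LPS libraries at 16.4 to 30.6 CPM. Cish stood at 34.7 CPM in a small cluster of 62 cells on 16 UMIs, and at 5.88 to 12.7 CPM in the other 8. Within the Iigp1 and Gbp2 cluster, Usp18 was at 165 and 199 CPM in young LPS libraries (314 and 231 cells) and at 193 and 145 CPM in old ones (61 and 115 cells), which overlapped. Socs1 there was at 168 and 153 CPM in young and at 59.7 and 104 CPM in old libraries, which did not. Of the 5 members 3 were among the variable genes used for clustering, so these clusters rest in part on them. Clustering without the members, an alternative added after seeing the data, left 290 cells in the cluster led by Gbp2 and Iigp1, with 216 CPM of Socs1, 168 CPM of Usp18, 150 CPM of Socs3 and 199 CPM of Socs2. A cluster of 1187 cells led by Ly6i, Lcn2 and Iigp1 then held 47.3 CPM of Socs1 and 117.5 CPM of Usp18. In that larger cluster Socs1 was at 59.3 and 49.8 CPM in young and 32.9 and 27.8 CPM in old LPS libraries, which did not overlap, and Usp18 at 114 and 124.5 CPM and at 120 and 108 CPM, which did. In the cluster of 290 cells Usp18 was at 173 and 208 CPM in young libraries and at 119.8 CPM in the second old one, with too few cells in the first old library to give a value.

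**Figure D4:**
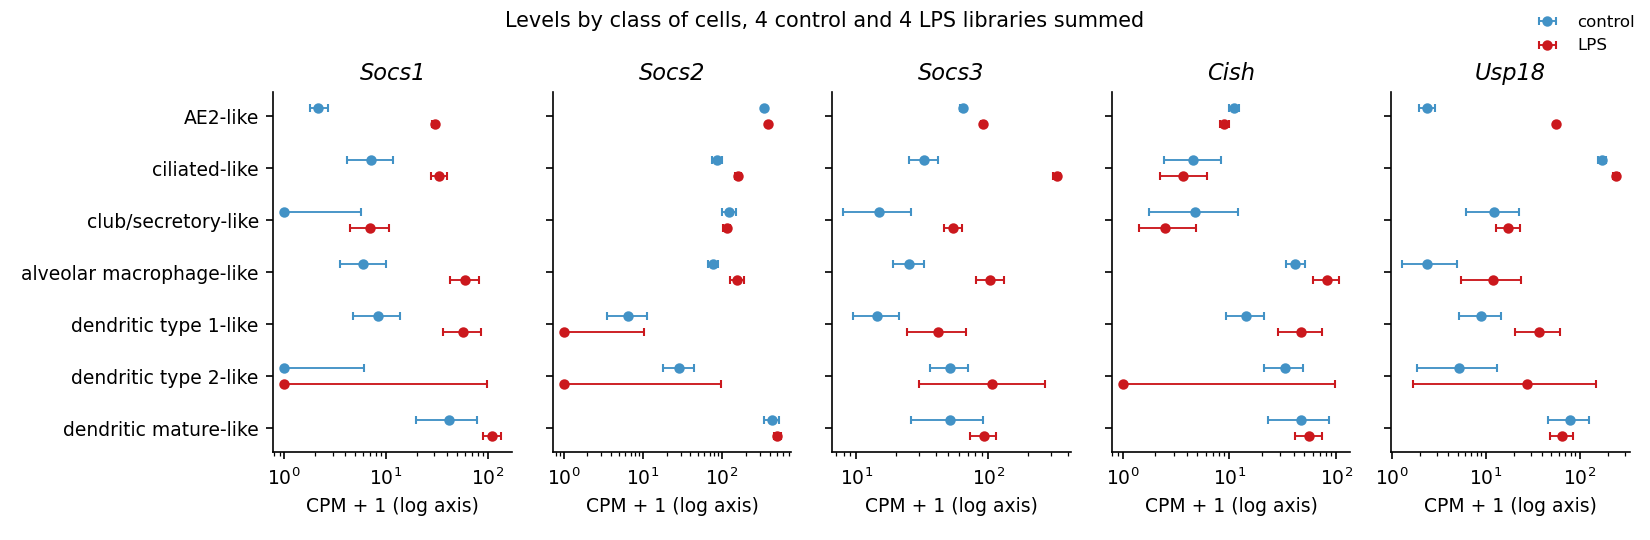
Levels of the 5 members by class of cells (horizontal log axes, CPM + 1, which differ between panels; 4 control libraries summed in blue, 4 LPS libraries in red, bars are exact 95% Poisson intervals). Usp18 of ciliated-like cells stands at 172 CPM already in controls, and Socs3 of ciliated-like cells moves from 31.6 to 330 CPM.

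Ciliated-like airway cells, which beat mucus out of the airways, had another setting of these genes. Control cells of this class lay mostly in 1 cluster and LPS cells mostly in another, and each library held 52 to 266 cells. In the second old LPS library 30 of 101 such cells lay in the cluster of control cells, and without that library the differences over both ages were 1.97 for Socs1, 1.06 for Socs2, 3.50 for Socs3 and 0.76 for Usp18 on the log2 scale. Usp18 was high before any LPS, at 163 and 141 CPM in young controls and 209 and 119 CPM in old controls. It reached 318 and 368 CPM after LPS in young cells and 203 and 214 CPM in old cells. Young LPS libraries lay above all others, while old control and old LPS libraries overlapped. In a fit of 7907 genes for this class, where 8.56% of genes were called in young cells (5.29% higher) and 9.23% in old cells (5.7% higher), it rose 2.31-fold in young cells (1.21 ± 0.19, adjusted p = 2.71e-05, edgeR) and was not called in old ones (0.35 ± 0.18, adjusted p = 0.258, edgeR).

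Socs3 of ciliated-like cells had 20.5 and 33.5 CPM in young controls, 44.5 and 14.8 CPM in old controls, 246 and 311 CPM in young LPS and 376 and 293 CPM in old LPS libraries. Every LPS library lay above every control. It rose 11.4-fold in young (3.51 ± 0.29, adjusted p = 1.79e-09, edgeR) and 10.1-fold in old cells (3.33 ± 0.24, adjusted p = 2.86e-10, edgeR). The interaction with age was -0.18 ± 0.44 (adjusted p = 0.992, edgeR) and was not called. Whether this differs from the interaction in AE2-like cells was not tested.

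Socs1 of ciliated-like cells had 1 to 6 UMIs in control libraries (3.35 to 7.42 CPM). After LPS it reached 122 and 59.1 CPM in young but 5.35 and 13.9 CPM in old libraries. The young LPS libraries stood alone, and the old ones overlapped the controls. It rose 16.9-fold in young cells (4.08 ± 0.54, adjusted p = 4.05e-06, edgeR), and in old cells the difference was 0.43 ± 0.71 (adjusted p = 0.804, edgeR). Old against young LPS cells differed by -3.52 ± 0.40 (adjusted p = 1.69e-06, edgeR), with 1.13% of genes called and 0.847% called lower in that comparison, and Usp18 was the other member called there (-0.72 ± 0.17, adjusted p = 0.0163, edgeR), a call that DESeq2 did not make (adjusted p = 0.645). The interaction was -3.65 ± 1.07 (adjusted p = 0.270, edgeR), with 0.24% of genes called and no member among them. The unadjusted p of the interaction was 0.00205 for Socs1, 0.00232 for Usp18, 0.0347 for Socs2 and 0.695 for Socs3 (edgeR). In the same order DESeq2 gave 0.00388, 0.0353, 0.164 and 0.844, and it also called no member. The share of all genes at such unadjusted values was not counted, so these values are not calls.

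Socs2 of ciliated-like cells rose over both ages (1.03 ± 0.14, adjusted p = 1.07e-06, edgeR), from 68.4 to 103 CPM in controls to 147 to 180 CPM after LPS, with no overlap. In that comparison all 4 members tested were called higher, against 17.4% of all genes (9.64% higher), and Cish, at 0 to 6.69 CPM from at most 6 UMIs a library, did not pass the filter on low counts. The changes after LPS differed between ciliated-like and AE2-like cells for 4 members, in a fit that called 15.2% of genes (8.57% higher and 6.64% lower). The difference, as ciliated-like minus AE2-like on the log2 scale, was -4.31 ± 0.24 for Usp18 (adjusted p = 2.96e-71, edgeR), 3.03 ± 0.19 for Socs3 (adjusted p = 2.32e-52) and 0.95 ± 0.16 for Socs2 (adjusted p = 1.16e-07). For Socs1 it was -1.78 ± 0.61 (adjusted p = 0.0286, edgeR), which DESeq2 did not call (adjusted p = 0.0802), and for Cish 0.20 ± 0.83 (adjusted p = 0.954, edgeR). That fit took the spread as shared over genes with 4 residual degrees of freedom, so the smallest of these p-values are less certain than their size; DESeq2 gave 9.34e-33 for Usp18 and 2.10e-13 for Socs3.

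Levels in the other classes rest on few cells and are given without a test, as CPM of the control or LPS libraries summed with the exact 95% Poisson interval, which covers counting error only. Socs2 was highest in mature dendritic-like cells (425 CPM, 343 to 521, in controls and 499 CPM, 452 to 550, after LPS), next in AE2-like cells (337 and 380 CPM), and lowest in dendritic type 1-like cells (5.47 CPM, 2.50 to 10.4, in controls). After LPS 60 type 1-like cells held no Socs2 UMI, with an upper bound of 9.42 CPM. In controls the first 2 of these classes overlapped, and club/secretory-like, ciliated-like and alveolar macrophage-like cells (123, 86.7 and 76.0 CPM) overlapped with each other in their library ranges.

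Cish was highest in leukocytes. In controls it stood at 45.7 CPM (21.9 to 84.0) in mature dendritic-like, 40.5 CPM (32.5 to 49.9) in alveolar macrophage-like, 31.9 CPM in dendritic type 2-like, 13.4 CPM in type 1-like and 10.03 CPM in AE2-like cells. Each of these overlapped with the next. After LPS alveolar macrophage-like cells held 80.8 CPM (60.1 to 106, from 74 cells) and AE2-like cells 7.97 CPM (7.13 to 8.89). Young control macrophage-like cells held 14.99 CPM (76 cells) and old control ones 46.2 CPM (367 cells, 322 of them from 1 library), with library values of 13.3 and 17.1 against 46.0 and 47.7 CPM.

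For Socs1 and Socs3 the order of classes differed between ages, and they are given by group. After LPS, Socs1 stood in young mice at 150.8 CPM (95.6 to 226, from 17 cells) in alveolar macrophage-like, 105.5 CPM (75.4 to 144) in mature dendritic-like, 96.4 CPM in ciliated-like, 72.1 CPM in dendritic type 1-like and 53.3 CPM in AE2-like cells, with intervals that overlap from each class to the next. In old mice it stood at 113 CPM (83.9 to 149) in mature dendritic-like, 32.1 CPM in dendritic type 1-like, 29.2 CPM in alveolar macrophage-like, 12.3 CPM in AE2-like and 7.91 CPM in ciliated-like cells. Mature dendritic-like cells thus stood clear of these other classes, by counting intervals, in old LPS mice but not in young ones. Usp18 was highest in ciliated-like cells at both treatments (172 and 243 CPM), next in mature dendritic-like cells (77.7 and 63.3 CPM), with library ranges that overlapped in controls, and after LPS AE2-like cells stood beside the latter at 87.6 against 71.2 CPM in young mice, with overlapping intervals, and at 32.5 against 56.6 CPM in old mice, without overlap. Socs3 was highest after LPS in ciliated-like cells, at 273 CPM in young and 351 CPM in old mice, among named classes with more than 10 cells. An unnamed cluster of 77 cells led by S100a9, S100a8 and Il1b held 455 CPM of it over all libraries. In controls AE2-like cells held 82.2 CPM of it in young mice, where type 2 and mature dendritic-like cells held 38.3 and 49.8 CPM. In old controls they held 46.9 CPM, and those dendritic cells 71.6 CPM (42.4 to 113) and 50.5 CPM (20.3 to 104), with overlapping intervals.

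The other genes of these pathways were described in AE2-like cells by lists, with counts from the same test. In the SOCS family 3 of 8 genes were higher and 4 lower over both ages, with a median log2 difference of -0.32 against -0.01 for all genes. This and the counts of the lists below stand against 29.3% of all genes called higher and 28.5% lower over both ages. Those that fell were the 4 that are not members: Socs4 (-0.35 ± 0.11, adjusted p = 0.0147), Socs5 (-0.41 ± 0.13, adjusted p = 0.0104), Socs6 (-0.61 ± 0.12, adjusted p = 6.40e-04) and Socs7 (-0.61 ± 0.14, adjusted p = 0.00156, edgeR). These are the less studied members, of which SOCS5 is linked to epidermal growth factor receptor turnover. In old cells 3 of them passed the test (Socs4, Socs6 and Socs7). In young cells the 4 stood at -0.45 to -0.20, with adjusted p of 0.0581 or more (edgeR).

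The ISG15 conjugation list, to which Usp18 belongs, had 5 of 5 tested genes higher at each age, where 21.9% (young) and 25.2% (old) of all genes were called higher. Isg15, the modifier itself, went from a mean of 4.45 to 482 CPM in young and from 9.60 to 309 CPM in old cells. The activating enzyme Uba7, the conjugating enzyme Ube2l6 and the ligase Herc6 rose by 2.41, 3.32 and 3.06 in young and by 1.69, 2.54 and 2.35 in old cells on the log2 scale. After LPS 4 of the 5 were lower in old than in young cells, where 2.39% of all genes were called lower, at -0.79 for Herc6, -0.89 for Ube2l6 and -0.61 for Uba7 beside Usp18, and Isg15 was not called (-0.63 ± 0.16, adjusted p = 0.0658, edgeR). The interaction of Isg15 was -1.76 ± 0.35 (adjusted p = 0.0746, edgeR) and missed the threshold.

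**Figure D5:**
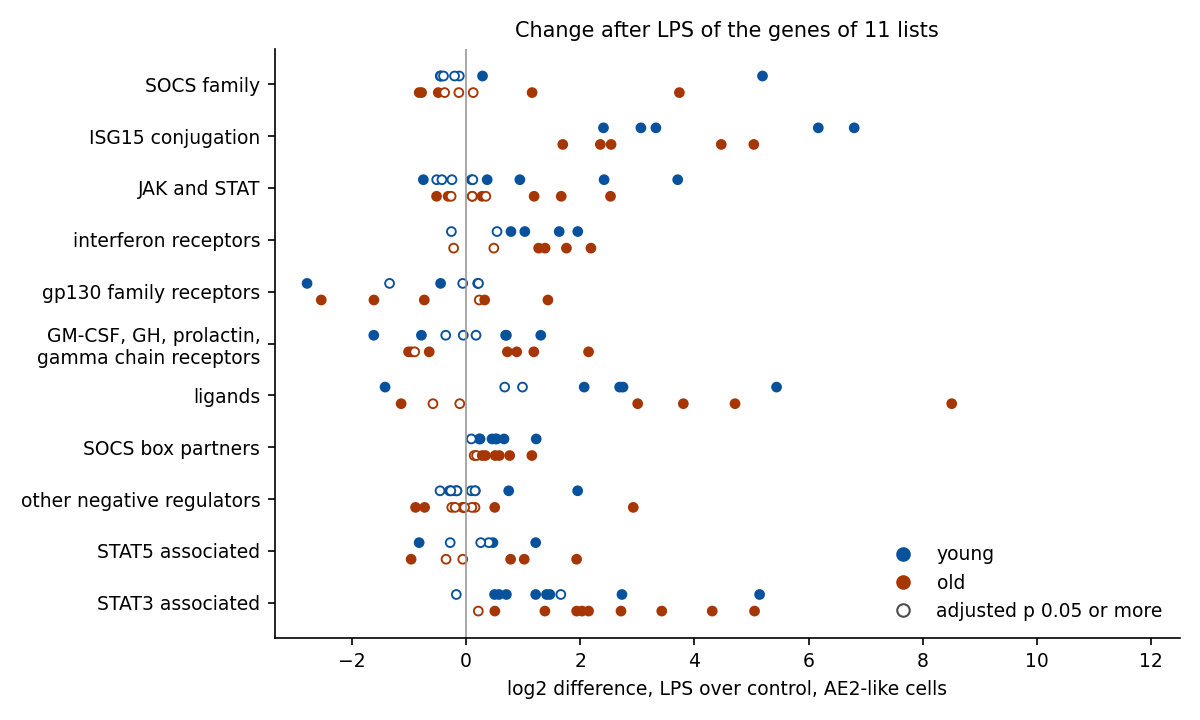
Log2 difference of LPS over control in AE2-like cells (horizontal axis) for each gene tested in 11 pathway lists (rows), in young (blue) and old (brown) cells; filled points passed an adjusted p of 0.05. All ISG15 conjugation genes lie to the right at both ages, while the SOCS family spreads from below -0.8 to above 5.

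Among receptors and kinases, 5 of 6 interferon receptor chains were higher over both ages and none lower. Ifngr2 rose by 2.07 ± 0.10 and Ifnar2, the chain that USP18 binds, by 1.69 ± 0.08 (adjusted p = 2.44e-11 and 4.46e-11, edgeR). Il10rb, shared by the interleukin-10 and lambda interferon receptors, rose by 1.21 ± 0.07 (adjusted p = 9.71e-10, edgeR). Of 10 JAK and STAT genes tested, 4 were higher and 3 lower, near the share of all genes called (57.8%), and Jak3, the kinase of gamma chain receptors, rose by 1.07 ± 0.13 (adjusted p = 2.27e-06, edgeR). Stat2, a partner in the type I interferon response, stood at a mean of 49.3 CPM in young and 25.6 CPM in old LPS cells (-0.93 ± 0.11, adjusted p = 1.30e-04, edgeR). Stat3 was not called over both ages (0.10 ± 0.07, adjusted p = 0.252, edgeR). Of 6 gp130 family receptor genes, 2 were higher and 3 lower: Cntfr fell by 2.66 on the log2 scale and Lifr fell by 0.59.

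Osmr, the oncostatin M receptor chain that pairs with gp130, was the 1 gene of that list called in the interaction (1.22 ± 0.18, adjusted p = 0.00314, edgeR). Its mean was 46.4 CPM in young and 32.2 CPM in old controls, and 54.1 and 84.4 CPM after LPS. It rose by 1.43 ± 0.12 in old cells (adjusted p = 1.53e-07, edgeR) and the difference in young cells was 0.22 ± 0.13 (adjusted p = 0.191, edgeR). Il4ra, the interleukin-4 receptor chain, was the 1 gene called there among 8 tested of the GM-CSF, growth hormone, prolactin and gamma chain receptors, with 0.70 ± 0.17 in young and 2.14 ± 0.17 in old cells. Of those 8 genes 3 were higher (Il4ra, Il13ra1 and Il15ra, by 1.42, 0.94 and 1.10) and 3 lower over both ages, among them the insulin receptor Insr, which fell by 0.50, and 6 of the 14 in the list were too low to test, Prlr and Epor among them.

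Of 17 ligands 7 could be tested, and 4 were higher and 1 lower over both ages. Csf3, which acts through the SOCS3-regulated G-CSF receptor, had a mean of 19.1 CPM in young and 105 CPM in old LPS cells (2.47 ± 0.27, adjusted p = 0.00609, edgeR), and Csf2 105 and 262 CPM (1.33 ± 0.15, adjusted p = 7.37e-04, edgeR). Il6 was scarce, at means of 2.35 and 4.00 CPM after LPS (0.81 ± 0.37, adjusted p = 0.270, edgeR). Ifnb1 had no UMI and Ifng 1 UMI in the AE2-like sums. Of 5 other receptors linked to SOCS3 or STAT3 only Il20rb was tested, and it rose (3.08 ± 0.55, adjusted p = 1.58e-04, edgeR).

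Of 12 other negative regulators of JAK signalling, 2 were higher (Ptpn2 and Cblb) and 2 lower (Pias1 and Dusp1) over both ages. Ptpn2, a phosphatase of JAKs and STATs, rose by 1.95 ± 0.13 in young and 2.93 ± 0.13 in old cells and was higher in old than young LPS cells (0.51 ± 0.11, adjusted p = 0.0150, edgeR). The SOCS box ligase partners, which link SOCS proteins to ubiquitin transfer, had 7 of 8 higher and none lower, with a median of 0.42. Those with the smallest p were those of the neddylation enzyme Ube2f (1.19 ± 0.08), the elongin Elob (0.71 ± 0.07) and the RING protein Rbx1 (0.52 ± 0.06). Of 10 STAT3 associated genes 9 were higher and none lower, led by Tnfaip3, a brake on NF-kappaB (3.08 ± 0.12), and Lcn2, an iron-scavenging defence protein (5.10 ± 0.12). Of 6 STAT5 associated genes 3 were higher, Bcl2l1 among them (0.62 ± 0.09), and 1 lower (Bcl6), while the cyclin gene Ccnd1 missed the threshold (-0.44 ± 0.16, adjusted p = 0.0543, edgeR). Pim1, a kinase gene on both of those lists, had means of 81.0 and 189 CPM in young and 37.0 and 137 CPM in old cells.

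The genes whose log2 CPM followed each member most closely over the 8 AE2-like libraries were ranked by Pearson's r among genes with a mean of at least 10 CPM. They were Polr3k, Idnk and Hadh for Socs1 (r = 0.990 each), Map2k2, Dtx3l and Clec2d for Usp18 (0.998, 0.997 and 0.996), and Nfs1, Mrps35 and Fosl2 for Socs3 (0.984, 0.960 and 0.955). For Socs2 they were Cyp2b10, Ap3s1 and Per1 (0.969, 0.966 and 0.964), and for Cish Ring1, Abtb1 and Fam122a (0.949, 0.930 and 0.916). Their ranges were often narrow: Nfs1 ran from 18.4 to 24.6 CPM where Socs3 ran from 45.6 to 104 CPM. The libraries share 2 treatments and 2 ages, and the highest of 6833 or 6834 correlations over 8 libraries describe these libraries only.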

How the data were processed

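Each deposited table is a gene by barcode matrix of whole UMI counts for 1 library, not normalized by the authors. The submitters' processing notes name build mm10, R 3.6.3, Seurat (3.1, 3.1.5), bcl2fastq, STAR and Cell Ranger 3.1.0, without their roles. Barcodes with under 500 genes or over 20% mitochondrial UMIs were removed, and scrublet (scanpy 1.11.5) was run on each lane with 2% doublets assumed. It marked 13 cells, too few to count as working, so leaving out the 3% highest scores was added. Cells were clustered with 2000 variable genes, 30 components, 20 neighbours and leidenalg 0.10.2 at resolution 1. Clusters took the class with the highest mean log2 marker ratio (at least 1, pseudocount 20 CPM, a lead of 0.5, at least 3 markers in 20% of cells). Markers with their highest level in another class were not held against a name, a rule made after seeing the data, and strict naming is an alternative. Free RNA was not removed.

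Sums per library (4186148 to 12763573 UMIs) were filtered with filterByExpr, scaled with TMM and tested with robust quasi-likelihood fits in edgeR 4.0.16, R 4.3.3, all 8 libraries in 1 fit. The biological coefficient of variation was 0.0886. Classes with at least 10 cells in each library were tested too, and no member passed the filter in dendritic type 1-like cells. The SE is the absolute log2 difference over the root of the F statistic. DESeq2 1.42.0, other scalings, filters and cells, and each library left out were alternatives. The 2 lanes pair the libraries by label; deviations of same-lane libraries correlated at -0.03 to 0.15. Named genes are all members, the SOCS family, of each list the 3 called genes with the smallest p and the most abundant gene, and the 3 most alike genes per member. Pathway genes outside this rule (Bcl6, Dusp1, Uba7, Ifnb1, Ifng, Prlr, Epor) were named after their values were seen. One gene that the rule names is not reported here. Members, lists and markers were chosen with earlier results of these data known.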

Additional observations from a re-analysis of the deposited data

Results flagged for a closer look

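The change of Socs3 after LPS differed between old and young AE2-like cells by 1.28 on the log2 scale, by the test of the difference itself (adjusted p = 0.00218, edgeR), with old above young in both lanes. The changes after LPS of 4 members also differed between ciliated-like and AE2-like cells by such a test. The difference, as ciliated-like minus AE2-like, was -4.31 for Usp18, 3.03 for Socs3, 0.95 for Socs2 and -1.78 for Socs1. That of Socs1 was not called with DESeq2 (adjusted p = 0.0802), and its control levels rest on few UMIs in both classes. Control ciliated-like cells already held 172 CPM of Usp18 against 1.37 CPM in AE2-like cells.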

How the results depend on the processing

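No value reversed in direction among the called ones. Of 513 values of single members in AE2-like cells under the alternatives, 481 kept their side of the threshold. Pairing the libraries by lane (replicate block) changed none of 41 results, with 3, 3, 1, 3, 1 and 4 members called in young LPS, old LPS, age in controls, age after LPS, interaction and both ages. Summing all cells of every class left 0 members called for age in controls, 0 for age after LPS and 0 for the interaction, where 0.00757%, 0.0379% and 0% of 13204 genes were called in all. Strict naming, which left out 3 clusters of mostly LPS cells, called 5 members in young LPS, 3 higher and 2 lower (33.3% of genes called), and 1 in age after LPS, lower (1.04%). With no filter on low counts the interaction called 2 (Usp18 joins at adjusted p = 0.0417, edgeR). With libraries left out in turn the interaction ran from 1.13 to 1.45 for Socs3 and from -2.06 to -1.21 for Usp18 on the log2 scale. Each such fit leaves 1 library in a group, so its counts of members called are not given. Cish and control Socs1 and Usp18 are limited by depth, at 100 UMIs or fewer a library.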
